A study of Oryza sativa with 18 samples.

Results

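The 8 genes described here encode WRKY transcription factors with a known part in rice defense: OsWRKY53 (LOC_Os05g27730), OsWRKY71 (LOC_Os02g08440), OsWRKY28 (LOC_Os06g44010), OsWRKY13 (LOC_Os01g54600), OsWRKY45 (LOC_Os05g25770), OsWRKY62 (LOC_Os09g25070), OsWRKY76 (LOC_Os09g25060) and OsWRKY70 (LOC_Os05g39720). They were taken by name and MSU identifier from the 64687 genes listed in the count table. All 8 were among the 30907 genes that passed the filter on low counts. RNA-seq was performed on crown root tips of rice (Oryza sativa, cultivar Kitaake), cut over about 1 cm from seedlings of 6 days and pooled from 20 to 24 plants per sample. The groups were oscoi2 plants (edited in OsCOI2), oscoi1ab plants (edited in both OsCOI1a and OsCOI1b) and unedited WT plants, each 6 h after 5 µM JA or after the mock treatment with DMSO, with 3 libraries per group and 18 in all. Each edited line is 1 homozygous T3 line carrying small deletions, so a difference between lines cannot be told apart from any other difference between these lines.

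WRKY factors bind DNA through a domain with the conserved WRKYGQK motif and a zinc finger, and many of them recognise the W-box in promoters of defense genes. Jasmonate (JA) is perceived, as its isoleucine conjugate, by a COI F-box protein together with a JAZ repressor, and the destruction of the JAZ proteins frees transcription factors. Rice has 3 COI genes, and the comparison of the lines asks which JA responses need OsCOI2 and which need the OsCOI1 pair. Among the 8 factors, OsWRKY53 and OsWRKY70 are substrates of MAP kinases, OsWRKY45 is a central factor of the salicylic acid pathway, and OsWRKY13 acts on the balance of the salicylic acid and JA pathways. OsWRKY28, OsWRKY62, OsWRKY71 and OsWRKY76 form the rice WRKY subgroup IIa, in which several members act as repressors of defense.

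OsWRKY71 and OsWRKY28 are the members on which the comparison of the lines turns. The study amplified both by qPCR, and the primers, 20 bases each and written 5′ to 3′ in lower case, are those of its assay and were not placed on a transcript here.
OsWRKY71 forward primer: cggcaaaagacgcttgtaac
OsWRKY71 reverse primer: tcgggaccgaagcaaatttg
OsWRKY28 forward primer: aacgccgatgaactttgctc
OsWRKY28 reverse primer: aactccgatcaaagccatgc
The deposited counts do not show how reads from similar genes of subgroup IIa were divided.

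Each library held 99657931 to 113672521 estimated counts, of which the 8 members took 0.0301 to 0.119%. Levels are given as CPM, the count of a gene relative to all counts of the library, after TMM scaling. They are not corrected for gene length and are compared between libraries only. In pooled tissue, fewer cells expressing a gene and less RNA per cell cannot be told apart. OsCOI1a was lower in oscoi1ab than in WT plants under mock (log2FC of -2.32, FDR 0.00121 by the edgeR quasi-likelihood test), while OsCOI2 was lower in oscoi2 plants by less than the fold limit (log2FC of -0.84, FDR 0.00438) and OsCOI1b of oscoi1ab plants did not pass the test (log2FC of -0.26, FDR 0.995). Small deletions need not change a count, so these levels check the labels only in part. The 6 root markers (OsLsi1, OsLsi2, OsSHR1, OsSCR1, QHB and CRL1) summed to 2043 to 3541 CPM over the 18 libraries. Most of this came from OsLsi1 and OsLsi2, with means of 1574 and 1251 CPM in mock-treated WT plants. The 4 markers of green tissue (OsRBCS2, OsRBCS, CAB1R and CAB2R) summed to 46.7 to 275 CPM in the 6 libraries numbered 1 and to 166 to 673 CPM in the 12 others, and number 1 was the lowest library in 6 of 6 groups. By group, the green sums were 140 to 262 CPM after JA, against 77.1 to 238 CPM under mock, in oscoi2 plants, 46.7 to 195 CPM against 275 to 673 CPM in oscoi1ab plants and 78.7 to 211 CPM against 179 to 593 CPM in WT plants. After JA, 0 of the 6 root markers were DEGs in any line. OsLsi1 was still lower, by less than the fold limit, in oscoi1ab (log2FC of -0.93, FDR 1.8e-04, edgeR) and WT plants (-0.64, FDR 0.00405). It gave -0.03 in oscoi2 plants, where OsLsi2 gave 0.48 (FDR 0.018). Of the green markers 0 of 4 were DEGs in oscoi2 plants, 2 of 4 in oscoi1ab plants and 2 of 4 in WT plants, all lower. Over all genes tested, 4.46, 15.6 and 14.0% were DEGs in these lines. In oscoi2 plants 3 of the 4 green markers had a negative log2FC and 1 a positive one. CAB2R gave -2.84 there (FDR 0.0156, edgeR), and its JA and mock libraries did not overlap.

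The libraries numbered 1 also stood apart for 4 of the 8 WRKY genes. For OsWRKY45, OsWRKY62, OsWRKY76 and OsWRKY70, number 1 was the lowest library of its group in 6 of 6 groups, which held for 600 of the 30907 genes tested (1.94%). The mean deviation of these libraries from their group means was -0.65 for OsWRKY45, -1.24 for OsWRKY62, -1.59 for OsWRKY76 and -1.34 for OsWRKY70 on the log2 CPM scale. The replicate number took 76.5 to 82.3% of the spread within groups (as sum of squares) of these 4 genes, against 18.7% for the median gene. The share was smaller for the other 4 members, with 47.3% for OsWRKY71, 46.9% for OsWRKY53, 49.2% for OsWRKY13 and 39.9% for OsWRKY28. Their shares were still high among all genes tested, from percentile 82.2 for OsWRKY28 to percentile 90.0 for OsWRKY13. Whether the green-tissue content or another property of these libraries had a part in this was not tested. Values without the 6 libraries, a choice made after the data were seen, are given beside several of the results below.

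**Figure D1:**
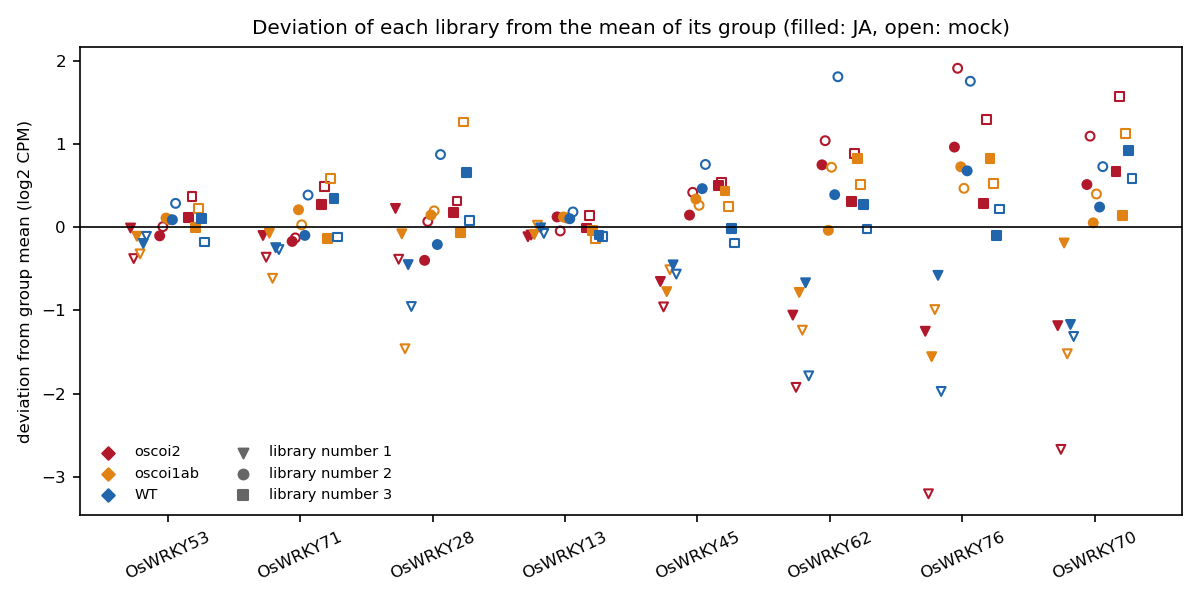
Deviation of each of the 18 libraries from the mean of its group, in log2 CPM (vertical axis), for the 8 WRKY genes (horizontal axis), with the library number as symbol, the line as colour and filled symbols for JA. The 6 triangles of number 1 lie below 0 in every group for OsWRKY45, OsWRKY62, OsWRKY76 and OsWRKY70, with means of -0.65 to -1.59.

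A gene was called a DEG at an FDR (Benjamini-Hochberg adjusted p over all genes tested, edgeR quasi-likelihood test) under 0.01 with a log2FC whose size was 1 or more. After JA, 2 of the 8 members were DEGs in oscoi2 plants, 3 in oscoi1ab plants and 3 in WT plants, all of them higher. Over all genes tested, 4.46% were DEGs in oscoi2, 15.6% in oscoi1ab and 14.0% in WT plants. JA and mock libraries did not overlap for 3 members in oscoi2 plants (33.2% of all genes), 5 in oscoi1ab plants (51.7%) and 4 in WT plants (48.3%). The median log2FC of the members was -0.10 in oscoi2, 0.20 in oscoi1ab and 0.60 in WT plants, beside medians of -0.01, -0.03 and -0.05 over all genes. The members thus did not move as one group, and they are described in turn. The mock and JA libraries of a line enter several of the comparisons below, so these share samples.

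OsWRKY53, a positive regulator of blast resistance, rose after JA in all 3 lines. It stood at 340, 318 and 370 CPM in JA-treated oscoi2 plants, against 119, 156 and 201 CPM in mock-treated oscoi2 plants. In oscoi1ab plants it stood at 592, 689 and 638 CPM after JA, against 128, 170 and 187 CPM under mock. In WT plants the levels were 534, 651 and 659 CPM after JA, against 141, 186 and 135 CPM under mock. Every JA library lay above every mock library of its line, and the oscoi2 libraries after JA lay between the mock and JA libraries of the other lines. The log2FC was 1.11 ± 0.18 in oscoi2 plants (SE, FDR 5.0e-04, edgeR), 1.98 ± 0.18 in oscoi1ab plants (FDR 4.2e-07) and 2.00 ± 0.18 in WT plants (FDR 4.6e-07). The call in oscoi2 plants rested on the fold limit: it was lost without the mock library 1 of oscoi2 plants (log2FC of 0.94) and without all libraries numbered 1 (log2FC of 0.95).

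OsWRKY71, whose overexpression raises resistance to bacterial blight, rose in all lines as well. The 3 libraries of oscoi2 plants held 80.4, 76.5 and 104 CPM after JA, against 22.1, 25.9 and 39.8 CPM under mock. Those of oscoi1ab plants held 221, 269 and 211 CPM after JA, against 11.9, 18.5 and 27.3 CPM under mock. In WT plants 193, 213 and 290 CPM were found after JA, against 20.2, 31.9 and 22.5 CPM under mock. No JA library overlapped with a mock library, and all oscoi2 libraries after JA stayed below those of the other lines. The log2FC was 1.57 ± 0.28 in oscoi2 (SE, FDR 0.00107, edgeR), 3.60 ± 0.30 in oscoi1ab (FDR 1.4e-07) and 3.22 ± 0.30 in WT plants (FDR 4.6e-07), that is 2.97-, 12.1- and 9.34-fold. Without the libraries numbered 1 the oscoi2 value was 1.46 with an FDR of 0.0137.

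OsWRKY28 showed the widest gap between the lines among the 8 genes. This subgroup IIa factor is described as a negative regulator of resistance to blast. It stood at 8.54, 5.53 and 8.22 CPM after JA in oscoi2 plants, against 4.04, 5.54 and 6.57 CPM under mock, so that the libraries overlapped. In oscoi1ab plants 37.9, 44.3 and 38.2 CPM were found after JA, against 0.734, 2.36 and 4.96 CPM under mock. In WT plants it stood at 32.6, 38.6 and 70.3 CPM after JA, against 1.25, 4.47 and 2.57 CPM under mock. In both of these lines the lowest JA library was several times above the highest mock library. The log2FC was 0.46 ± 0.50 in oscoi2 plants (SE, FDR 0.594, edgeR, not a DEG), with a 95% confidence interval of -0.63 to 1.56. It was 3.90 ± 0.56 in oscoi1ab (FDR 4.0e-05) and 4.09 ± 0.56 in WT plants (FDR 3.0e-05), or 14.9- and 17.1-fold.

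**Figure D2:**
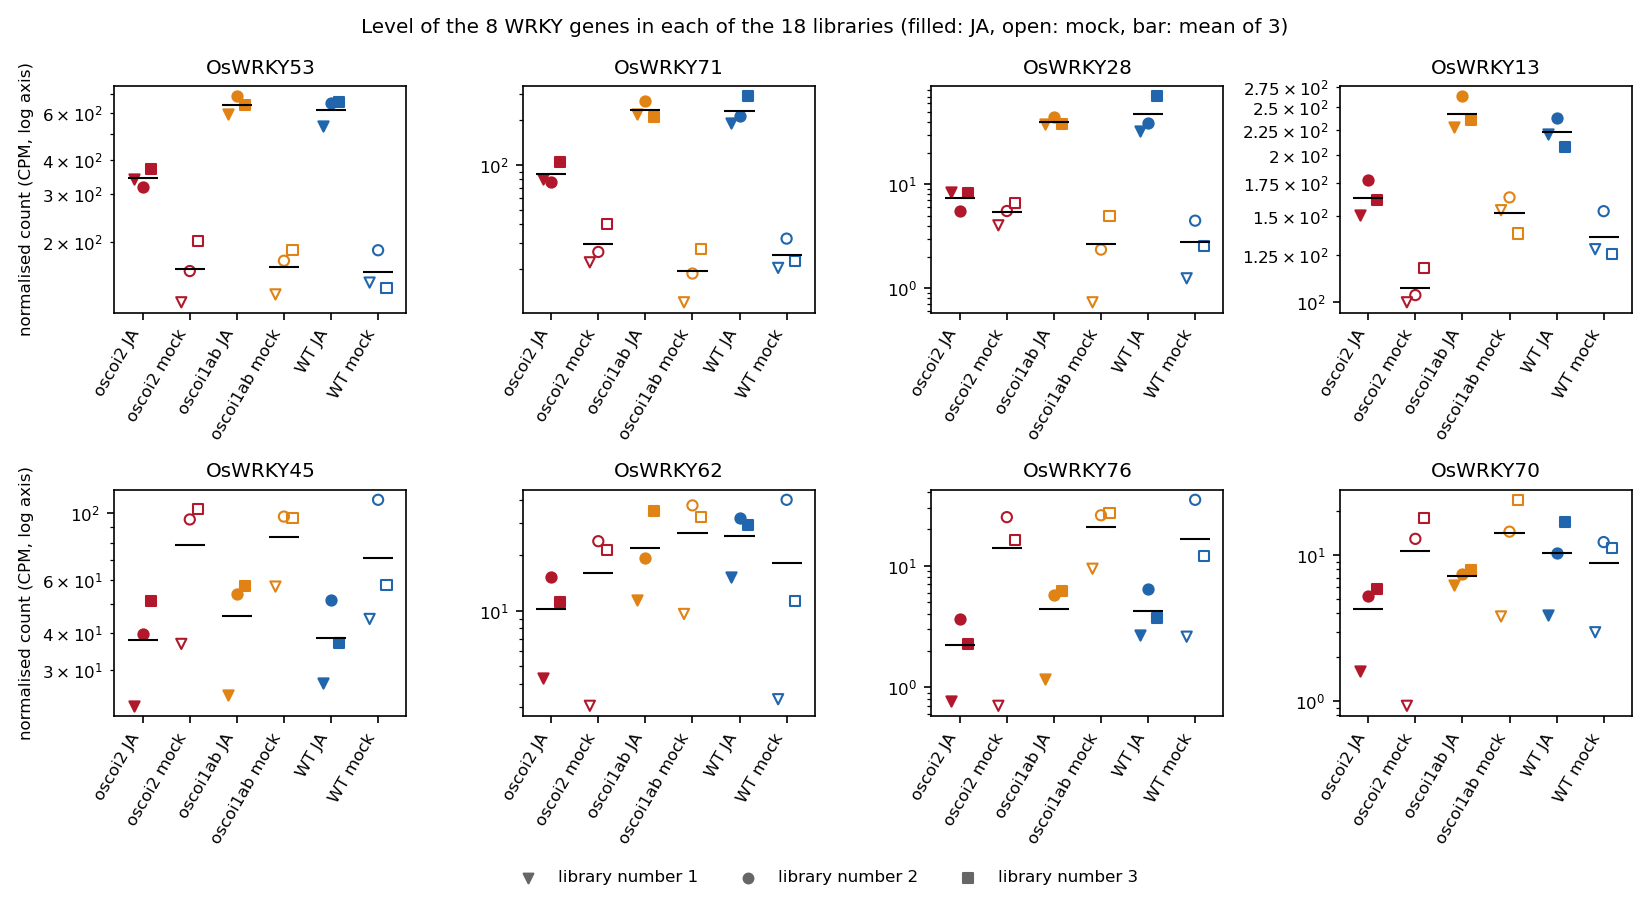
Level of each of the 8 WRKY genes in each of the 18 libraries, in CPM on a log axis, by line and treatment (horizontal axis), with filled symbols for JA, open symbols for mock, the library number as symbol and a bar for the mean of 3. OsWRKY28 stood at 5.53 to 8.54 CPM after JA in oscoi2 plants, against 32.6 to 70.3 CPM after JA in WT plants, OsWRKY13 shows narrow steps in all lines, and the lower 4 panels show the low libraries numbered 1.

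OsWRKY13 was higher after JA in all 3 lines, by less than the fold limit. It stood at 150, 177 and 162 CPM after JA, against 99.9, 103 and 117 CPM under mock, in oscoi2 plants. In oscoi1ab plants the levels were 228, 263 and 236 CPM after JA, against 154, 164 and 138 CPM under mock. In WT plants they were 221, 238 and 208 CPM after JA, against 128, 153 and 125 CPM under mock. No JA library overlapped with a mock library of the same line. The log2FC was 0.61 ± 0.11 (SE, FDR 0.00103, edgeR) in oscoi2, 0.67 ± 0.11 (FDR 1.2e-04) in oscoi1ab and 0.71 ± 0.11 (FDR 7.7e-05) in WT plants. These are the smallest standard errors among the members, and the values of the 3 lines lay within 1 SE of each other.

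OsWRKY45, which is needed for resistance induced by salicylic acid analogs, had lower means after JA in every line. It stood at 22.9, 39.8 and 51.1 CPM after JA in oscoi2 plants, against 36.8, 95.5 and 104 CPM under mock. The oscoi1ab libraries held 24.8, 53.8 and 57.5 CPM after JA, against 57.1, 97.6 and 96.6 CPM under mock. In WT plants the values were 27.2, 51.4 and 37.0 CPM after JA, against 44.5, 111 and 57.7 CPM under mock. The groups overlapped in each line. Matched by library number, the JA library was below the mock library of its line in 9 of 9 cases. The share of all genes for which this holds was not determined. Equal numbers of JA and mock correlated throughout only in WT plants, with an r as low as 0.055 in oscoi1ab and 0.091 in oscoi2 plants. The log2FC was -1.05 in oscoi2 (FDR 0.114, edgeR), -0.88 in oscoi1ab (FDR 0.126) and -0.88 in WT plants (FDR 0.129), so that it was a DEG in no line. In WT plants the r of equal numbers was 0.337, 0.376 and 0.287 after removal of group means, which does not establish that the libraries were paired. With the replicate number as a block the WT value was -0.85 with an FDR of 0.0051 (edgeR), still under the fold limit. Without the 6 libraries numbered 1 it was a DEG in no line either. The log2FC was then -1.13 in oscoi2 (FDR 0.0297, edgeR), -0.80 in oscoi1ab (FDR 0.0482) and -0.93 in WT plants (FDR 0.0269).

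OsWRKY76, a repressor of defense genes, had lower means after JA in all lines without being a DEG. In oscoi2 plants it stood at 0.771, 3.64 and 2.27 CPM after JA, against 0.703, 25 and 16.3 CPM under mock. In oscoi1ab plants it stood at 1.17, 5.75 and 6.17 CPM after JA, against 9.42, 25.9 and 26.9 CPM under mock. In WT plants it stood at 2.67, 6.40 and 3.72 CPM after JA, against 2.60, 34.7 and 12.0 CPM under mock. The groups did not overlap in oscoi1ab plants, whereas in oscoi2 and WT plants the mock library 1 was as low as the JA libraries. The log2FC was -2.65 ± 1.02 in oscoi2 (SE, FDR 0.0891, edgeR), -2.25 ± 1.00 in oscoi1ab (FDR 0.0902) and -1.95 ± 0.99 in WT plants (FDR 0.142). Over the omissions of 1 library it lay between -3.21 and -1.93 in oscoi2, between -2.60 and -1.80 in oscoi1ab and between -2.45 and -0.77 in WT plants, the last of these without WT mock library 2. Without the 6 libraries numbered 1, with 2 libraries left per group, OsWRKY76 was a DEG in all 3 lines, with -2.80 in oscoi2 (FDR 0.0065), -2.15 in oscoi1ab (FDR 0.00658) and -2.20 in WT plants (FDR 0.00591). In that fit 2.58, 12.6 and 11.7% of 29847 genes were DEGs in these lines.

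OsWRKY62, which acts together with OsWRKY76 and lowers resistance to bacterial blight when overexpressed, showed no common direction. It stood at 4.32, 15.1 and 11.1 CPM after JA in oscoi2 plants, against 3.03, 23.8 and 21.4 CPM under mock. The values in oscoi1ab plants were 11.5, 19.2 and 34.9 CPM after JA, against 9.58, 37.3 and 32.4 CPM under mock. In WT plants they were 15.2, 31.7 and 29.3 CPM after JA, against 3.29, 40.0 and 11.2 CPM under mock. The groups overlapped in each line, with a log2FC of -0.66 ± 0.80 in oscoi2 (SE, FDR 0.646, edgeR), -0.27 ± 0.80 in oscoi1ab (FDR 0.830) and 0.48 ± 0.80 in WT plants (FDR 0.685).

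OsWRKY62 and OsWRKY76 carry consecutive MSU locus numbers on chromosome 9, and their ratio within a library does not depend on the scaling of that library. The count of OsWRKY62 divided by that of OsWRKY76 was 5.60, 4.16 and 4.90 after JA in oscoi2 plants, against 4.31, 0.952 and 1.31 under mock. It was 9.82, 3.35 and 5.65 after JA in oscoi1ab plants, against 1.02, 1.44 and 1.20 under mock. In WT plants the ratio was 5.71, 4.96 and 7.86 after JA, against 1.27, 1.15 and 0.939 under mock. The libraries did not overlap in oscoi1ab and WT plants, and in oscoi2 plants the mock library 1, with its low counts, was the exception. The ratio was chosen after the values were seen and has no test. It is not per length, so only its difference between treatments is read. As a description, the ratio was higher after JA in oscoi1ab and WT plants. How many other gene pairs would separate the libraries in this way was not determined.

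**Figure D3:**
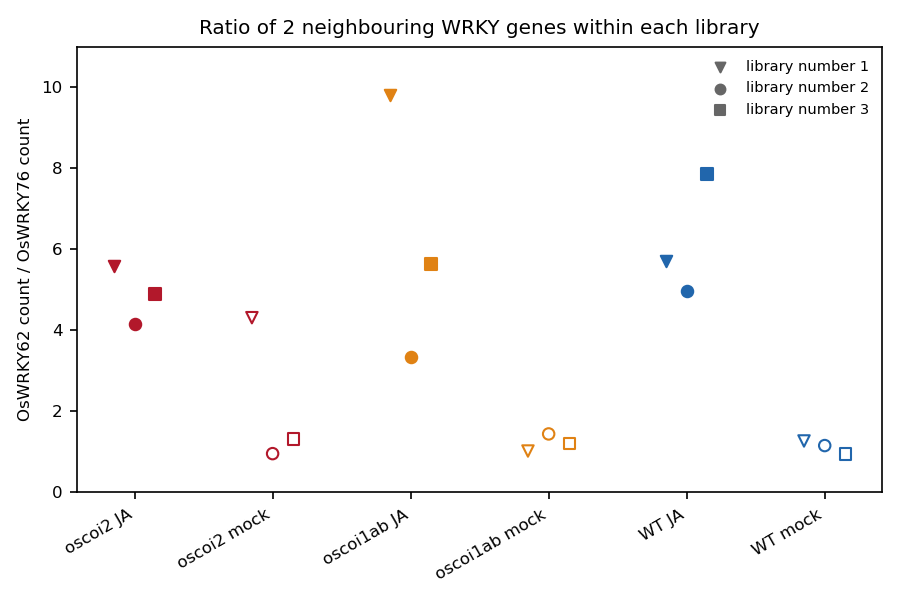
Count of OsWRKY62 divided by the count of OsWRKY76 in each of the 18 libraries (vertical axis, linear from 0) by line and treatment, with filled symbols for JA, open symbols for mock and the library number as symbol. JA libraries lie between 3.35 and 9.82, and 8 of the 9 mock libraries lie below 1.5, the exception being mock library 1 of oscoi2 plants at 4.31.

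OsWRKY70, which sets defense against herbivores above growth, was expressed at low levels and spread widely. In oscoi2 plants it stood at 1.62, 5.29 and 5.90 CPM after JA, against 0.932, 12.9 and 18 CPM under mock. The levels of oscoi1ab plants were 6.26, 7.41 and 7.85 CPM after JA, against 3.80, 14.4 and 23.9 CPM under mock. In WT plants they were 3.90, 10.4 and 16.7 CPM after JA, against 2.97, 12.3 and 11.1 CPM under mock. JA and mock libraries overlapped in each line. The log2FC was -1.32 ± 0.84 in oscoi2 (SE, FDR 0.321, edgeR), -0.97 ± 0.83 in oscoi1ab (FDR 0.399) and 0.23 ± 0.82 in WT plants (FDR 0.861). Without the libraries numbered 1 it was a DEG in oscoi1ab plants, with a log2FC of -1.33 and an FDR of 0.0065. In that fit it was not a DEG in oscoi2 (-1.47, FDR 0.0127, edgeR) or WT plants (0.21, FDR 0.620).

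**Figure D4:**
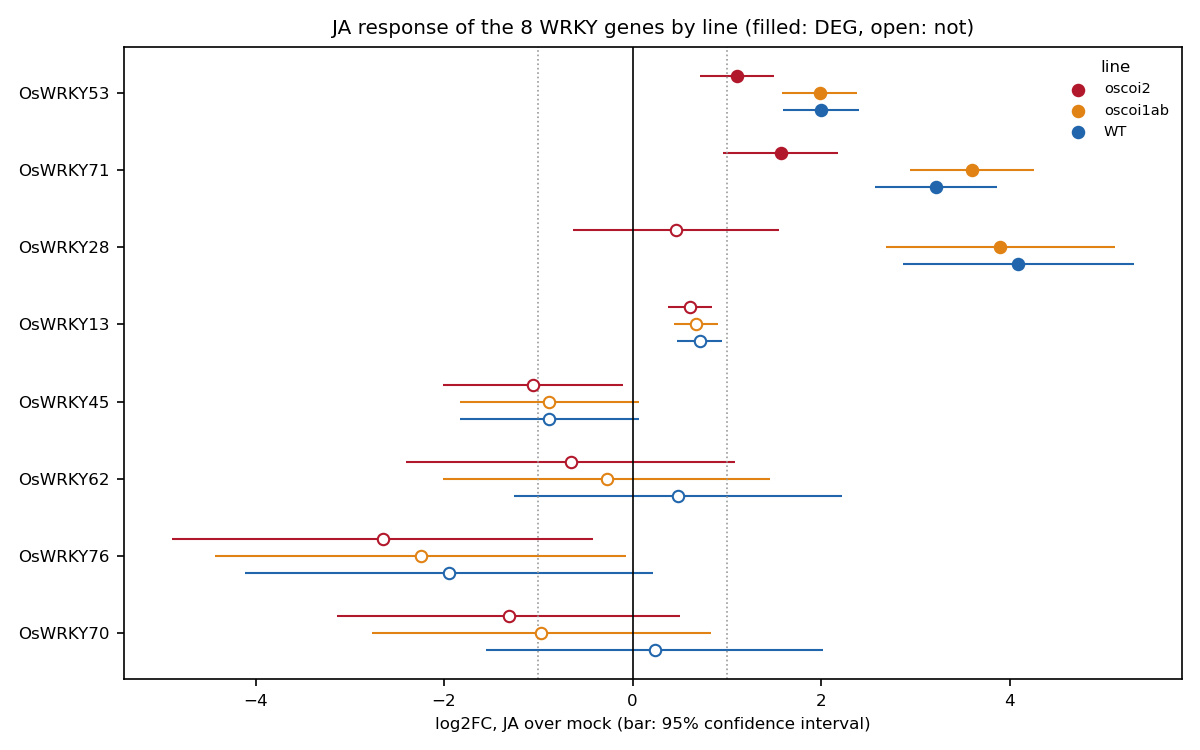
JA response of the 8 WRKY genes as log2FC of JA over mock (horizontal axis) in oscoi2, oscoi1ab and WT plants, with bars for the 95% confidence interval, filled symbols for DEGs and dotted lines at the fold limit of 1. The oscoi2 values of OsWRKY53, OsWRKY71 and OsWRKY28 (1.11, 1.57 and 0.46) lie left of those of the other lines, the intervals of OsWRKY13 overlap, and the intervals of OsWRKY45, OsWRKY62, OsWRKY76 and OsWRKY70 are wide.

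Under mock, the lines were compared to see whether the edits moved the 8 genes without added JA. In oscoi2 against WT plants 0 of 8 were DEGs (0.375% of all genes), with 1 member (22.7% of all genes) at an unadjusted p under 0.05 by edgeR and 0 DEGs by DESeq2. That member was OsWRKY13, with a mean of 107 ± 9.24 CPM in oscoi2 and 136 ± 15.5 CPM in WT plants (SD, n = 3 each), a log2FC of -0.34 and an FDR of 0.0686 by edgeR. It was the only member of 8 whose groups did not overlap (26.9% of all genes). OsWRKY28 had a mean of 5.38 ± 1.27 CPM in oscoi2 and 2.76 ± 1.62 CPM in WT plants (SD, n = 3 each), and the log2FC of 0.96 did not pass the test (FDR 0.283). The other 6 members lay between -0.23 and 0.28. In oscoi1ab against WT plants 0 of 8 were DEGs by edgeR (0.162% of all genes) and by DESeq2, 0 reached an unadjusted p under 0.05 (4.43% of all genes), and log2FC lay between -0.37 (OsWRKY71) and 0.68 (OsWRKY70). No member had groups without overlap there, beside 10.2% of all genes.

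After JA, the log2FC of oscoi2 against WT plants was negative for all 8 members, though only -0.02 for OsWRKY45, and 2 were DEGs (3.92% of all genes). The share of all genes with a negative log2FC was not determined. The groups did not overlap for 5 members (32.0% of all genes), and the median log2FC was -1.10 beside 0.02 over all genes. OsWRKY28 averaged 7.43 ± 1.65 CPM in oscoi2 and 47.2 ± 20.3 CPM in WT plants (SD, n = 3 each), a log2FC of -2.67 ± 0.53 (SE, FDR 0.00266, edgeR), or 6.35-fold less. OsWRKY71 averaged 87.0 ± 14.8 CPM in oscoi2 and 232 ± 51.3 CPM in WT plants (SD, n = 3 each), a log2FC of -1.42 ± 0.28 (SE, FDR 0.00259). OsWRKY53 was lower with a log2FC of -0.84 (FDR 0.00439) and OsWRKY13 with one of -0.45 (FDR 0.009998), both under the fold limit. OsWRKY62 did not overlap either, but only narrowly, with 15.14 CPM in oscoi2 JA library 2 and 15.21 CPM in WT JA library 1. Its log2FC of -1.32 had an FDR of 0.308. OsWRKY70, OsWRKY76 and OsWRKY45 gave -1.28, -0.93 and -0.02 without passing the test.

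Both DEGs of that comparison stood close to the FDR limit when a library was omitted. OsWRKY71 left it without WT JA library 3 (FDR 0.0165), oscoi2 JA library 1 (FDR 0.0141) or oscoi2 JA library 2 (FDR 0.0127). OsWRKY28 left it without WT JA library 3 (FDR 0.0156) or without oscoi2 JA library 1 (FDR 0.0107), 2 (FDR 0.0142) or 3 (FDR 0.0126). The log2FC of OsWRKY28 stayed between -2.87 and -2.26 over the 18 omissions, and that of OsWRKY71 between -1.56 and -1.22. Without the 6 libraries numbered 1, OsWRKY71 gave -1.48 with an FDR of 0.0101 and was not called, while OsWRKY28 gave -2.99 with an FDR of 0.00213 and was called. Over the 9 alternatives of processing, OsWRKY28 was called in 9 and OsWRKY71 in 8. In oscoi1ab against WT plants after JA, 0 of 8 members were DEGs by edgeR (0.162% of all genes) and by DESeq2, and 0 reached an unadjusted p under 0.05 (5.60% of all genes). There the log2FC of OsWRKY53 was 0.06 and that of OsWRKY71 0.01, with 95% confidence intervals of -0.33 to 0.44 and -0.59 to 0.60. No member had groups without overlap, beside 9.18% of all genes.

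Whether the JA response itself differed between lines was tested by the interaction contrast, the difference of 2 log2FC values. Between oscoi2 and WT plants it was a DEG call for 1 of 8 members (2.94% of all genes). The response of OsWRKY28 was lower by -3.63 ± 0.73 in log2 (SE, FDR 0.00497, edgeR). OsWRKY71 gave -1.65 ± 0.39 (FDR 0.0134) and OsWRKY53 -0.89 ± 0.25 (FDR 0.036), neither of which was called, and OsWRKY13 gave -0.10 with an interval of -0.44 to 0.23. The call of OsWRKY28 was lost, at an FDR of 0.0123 to 0.0168, when WT mock library 1 or 3, WT JA library 3, oscoi2 mock library 3 or oscoi2 JA library 2 or 3 was left out. OsWRKY71 was called, with an FDR of 0.00596 and 0.00744, when oscoi1ab mock library 1 or 3 was left out of the fit.

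Between oscoi2 and oscoi1ab plants the interaction was called for 2 of 8 members (3.37% of all genes). OsWRKY71 gave -2.03 ± 0.39 (SE, FDR 0.00331, edgeR) and OsWRKY28 -3.44 ± 0.73 (FDR 0.00607), both lower in oscoi2 plants, while OsWRKY53 gave -0.87 ± 0.25 (FDR 0.0362) and OsWRKY13 -0.06. The call of OsWRKY71 was lost, at FDR of 0.0104 to 0.0116, without oscoi1ab mock library 2, oscoi2 mock library 3 or oscoi2 JA library 2. That of OsWRKY28 was lost, at FDR of 0.011 to 0.0201, without oscoi1ab mock library 2, any JA library of oscoi1ab or oscoi2 plants, or oscoi2 mock library 2 or 3. Without the 6 libraries numbered 1 neither was called, at -1.93 (FDR 0.0262) for OsWRKY71 and -3.31 (FDR 0.0116) for OsWRKY28. Between oscoi1ab and WT plants the interaction was called for 0 members and for 0% of all genes by edgeR. No member reached an unadjusted p under 0.05 there (2.92% of all genes), and DESeq2 called 0 members and 0.0679% of all genes. The differences and 95% confidence intervals were -0.01 (-0.56 to 0.54) for OsWRKY53, 0.38 (-0.46 to 1.22) for OsWRKY71 and -0.19 (-1.74 to 1.36) for OsWRKY28, so a difference of 2-fold is outside the interval for OsWRKY53 but not for the other 2.

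Across the 18 libraries the levels of some members went together. Pearson's r on log2 CPM was 0.986 between OsWRKY53 and OsWRKY71, 0.957 between OsWRKY71 and OsWRKY28 and 0.931 between OsWRKY53 and OsWRKY28. It was 0.918 between OsWRKY45 and OsWRKY76, 0.865 between OsWRKY70 and OsWRKY62, 0.738 between OsWRKY62 and OsWRKY76 and 0.595 between OsWRKY45 and OsWRKY62. OsWRKY13 was closest to OsWRKY53, with r of 0.895. After the group means were removed, r between OsWRKY62 and OsWRKY76 was 0.947 and r between OsWRKY53 and OsWRKY71 was 0.900. Other pairs with a low r over the 18 libraries had a high one there, as OsWRKY53 and OsWRKY70 (0.111 over the libraries and 0.796 after removal) and OsWRKY53 and OsWRKY45 (-0.46 and 0.795). The libraries share treatment, line and number, so these r are descriptions.

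For each member the non-member of at least 1 CPM with the highest r over the 18 libraries was taken from 23813 genes. For OsWRKY71 it was OsJAZ12 (LOC_Os10g25290), a JAZ repressor gene, with r = 0.993. For OsWRKY53 it was OsMKK10-2 (LOC_Os03g12390), a MAP kinase kinase gene, with r = 0.992. For OsWRKY28 it was a phenylalanine ammonia-lyase gene (LOC_Os02g41680) with r = 0.991, and for OsWRKY13 a C2H2 zinc finger gene (LOC_Os12g39400) with r = 0.973. The genes closest to the other 4 members had r of 0.922 to 0.947 and were LOC_Os12g36490 for OsWRKY45, LOC_Os12g30180 for OsWRKY62, Os10g0503250 for OsWRKY76 and LOC_Os01g51670 for OsWRKY70.

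A list of 11 genes that act with these factors in defense was examined beside them. It held the MAP kinases OsMPK3 and OsMPK6, the defense regulators OsNPR1 and OsPAD4, and OsALD1 of pipecolic acid synthesis. It also held the regulators OsWRKY10 and OsDPF, and OsCPS2, OsKSL7, OsCPS4 and OsKSL4 of diterpenoid phytoalexin synthesis. The list was chosen with earlier results of these data known, so its directions are not independent evidence. After JA, 2 of 11 were DEGs in oscoi2 plants, 8 of 11 in oscoi1ab plants and 8 of 11 in WT plants, all of them higher. Over all genes, 4.46, 15.6 and 14.0% were called in either direction in these lines. The median log2FC was 0.79 in oscoi2, 4.06 in oscoi1ab and 3.93 in WT plants. OsMPK6, whose product phosphorylates OsWRKY53 and OsWRKY70, stood at 146, 162 and 111 CPM after JA in oscoi2 plants, against 83.7, 84.6 and 74.2 CPM under mock, and at 233, 228 and 305 CPM after JA in WT plants, against 77.7, 73.6 and 78.1 CPM under mock. Its log2FC was 0.79 in oscoi2 (FDR 0.0019, edgeR, under the fold limit) and 1.74 in WT plants (FDR 3.1e-07). OsMPK3 gave 0.54 in oscoi2 (FDR 0.0797) and 1.57 in WT plants (FDR 2.1e-05).

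Further down this list, OsNPR1, the salicylic acid coactivator parallel to OsWRKY45, rose by a log2FC of 1.50 in oscoi2, 2.11 in oscoi1ab and 2.06 in WT plants. OsPAD4 gave 0.18 in oscoi2 (FDR 0.669, edgeR) and 1.33 in WT plants (FDR 3.3e-04). OsALD1 did not pass in any line, at 1.70 in oscoi2, 2.15 in oscoi1ab and 2.63 in WT plants (FDR 0.132, 0.031 and 0.012). OsDPF, an activator of phytoalexin genes, held 3.80, 5.81 and 3.01 CPM after JA in oscoi2 plants, against 0, 2.59 and 3.01 CPM under mock, and in WT plants 58.5, 98.4 and 128 CPM after JA, against 0.867, 4.33 and 0.905 CPM under mock. OsCPS4 gave 0.66 in oscoi2 (FDR 0.782, edgeR), 4.81 in oscoi1ab (FDR 0.0139) and 4.89 in WT plants (FDR 0.0136). OsKSL7 gave 0.60 in oscoi2 (FDR 0.831, edgeR), 4.06 in oscoi1ab (FDR 0.0403) and 3.93 in WT plants (FDR 0.0522). Neither gene passed the FDR limit in any line, although their JA and mock libraries did not overlap in oscoi1ab and WT plants. OsCPS2 and OsKSL4 passed in oscoi1ab and WT plants but stayed at 0 to 0.340 CPM after JA in oscoi2 plants. Between oscoi2 and WT plants after JA, 5 of the 11 were DEGs, beside 3.92% of all genes. These were OsNPR1, OsWRKY10, OsDPF, OsCPS2 and OsKSL4, each lower in oscoi2 plants. All 11 had a negative log2FC there. OsMPK6 (-0.87, FDR 0.00115, edgeR) and OsMPK3 (-0.93, FDR 0.00546) passed the FDR limit but not the fold limit.

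The other WRKY genes used here are 31 genes listed in the study, which chose them on these samples, so their directions are not independent evidence. OsWRKY10 is also in the list of 11 genes above and is counted in both lists. After JA, 7 of 31 were called higher and 1 lower in oscoi2 plants, 15 higher and 5 lower in oscoi1ab plants, and 18 higher and 5 lower in WT plants. Over all genes, 4.46, 15.6 and 14.0% were called in either direction in these lines. The median log2FC was 0.71 in oscoi2, 1.14 in oscoi1ab and 1.39 in WT plants. Among those called in WT plants and of at least 1 CPM on average, the largest rises in WT plants were of OsWRKY26, OsWRKY40, OsWRKY27, OsWRKY8 and OsWRKY10. OsWRKY26 averaged 0.381 CPM after JA and was at 0 in all mock libraries in oscoi2 plants, so that its JA mean was 4.01 times the floor. In WT plants it averaged 15.3 CPM after JA and was at 0 in all mock libraries, with a JA mean of 158 times the floor. The floor is 3 read pairs per mock library, where 3 read pairs are 10.9 counts or 0.0862 to 0.122 CPM over the libraries. These ratios allow for counting error under mock only. They leave out the error of the JA mean, so they are not lower bounds of the change.

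OsWRKY40 was at 0 in the mock libraries of both lines too, and its JA mean was 2.39 times the floor in oscoi2 and 70.5 times the floor in WT plants. Its lowest JA library in oscoi2 plants, at 0.119 CPM, lay within the range of the floor over the libraries. OsWRKY27 averaged 0.179 CPM after JA in oscoi2 plants, which did not pass (FDR 0.0314, edgeR), and 6.57 CPM in WT plants. OsWRKY8 averaged 1.10 CPM after JA in oscoi2 and 4.69 CPM in WT plants. OsWRKY10, which acts on phytoalexin genes, averaged 85.3 ± 6.60 CPM after JA in oscoi2 plants, against 6.77 ± 1.86 CPM under mock, and 279 ± 48.6 CPM after JA in WT plants, against 10.4 ± 2.49 CPM under mock (SD, n = 3 each). Among those called in WT plants and of at least 1 CPM on average, the largest falls there were of OsWRKY84, with a log2FC of -1.03 in oscoi2 (FDR 0.223) and -2.43 in WT plants (FDR 0.00301), and OsWRKY106, with -2.46 in oscoi2 (FDR 0.0016) and -2.08 in WT plants (FDR 0.00185).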

How the data were processed

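The deposited table holds an estimated count per gene and library, which the authors made with an in-house script from StringTie assemblies, after trimming by CutAdapt and mapping by HiSat2 to MSU7 and RAP-DB, without normalization. Versions of these tools are not given in the sources used here. All values are whole numbers, and low values cluster near multiples of 3.65 counts, so a count is not a read pair.

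Genes with a count sum of at least 180 were fitted with edgeR 4.0.16 (R 4.3.3): TMM scaling, 1 fit of 6 groups, quasi-likelihood F test, p adjusted by Benjamini-Hochberg over 30907 genes in each of 10 comparisons. SE is the size of log2FC divided by the square root of F. Log2 CPM used a prior count of 2. Scripts were tested on simulated data. Figures used matplotlib 3.10.9. Samples were grouped by their labels, and the methods describe them as independent biological samples. Members and gene lists were chosen with earlier results of these data known. Named genes were the 8 members, every gene of the 11-gene list, the 5 largest rises and 2 largest falls among other WRKY genes called in WT plants, and the gene most like each member.

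Alternatives were DESeq2 1.42.0, the replicate number as a block, only the libraries compared, no filter on low counts, scaling by DESeq2 size factors or by library size only, an FDR limit of 0.05 and each library left out. Counts divided by 3.65 and the 6 libraries numbered 1 left out were added after the data were seen. Equal replicate numbers correlated, after removal of group means over 17616 genes of at least 5 CPM, for JA and mock in WT plants (r of 0.337, 0.376 and 0.287) and for mock-treated oscoi1ab and WT plants (r of 0.470, 0.315 and 0.239). Elsewhere at least 1 number gave an r under 0.1.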

Additional observations from a re-analysis of the deposited data

Results flagged for a closer look

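The JA response of OsWRKY28 differed between oscoi2 and WT plants by an interaction contrast of -3.63 in log2 (edgeR), and between oscoi2 and oscoi1ab plants by -3.44. The JA response of OsWRKY71 differed between oscoi2 and oscoi1ab plants by -2.03. All 3 were picked out because the JA responses of 2 lines differed by a test of the difference itself, and each call was lost on omission of at least 1 library.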

How the results depend on the processing

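The JA rises of OsWRKY53, OsWRKY71 and OsWRKY28 in oscoi1ab and WT plants were called under all 9 alternatives and all 18 omissions of a library. DEGs among the 8 members numbered 2 between the responses of oscoi2 and WT plants under DESeq2, the replicate block, no filter on low counts, an FDR limit of 0.05 and the counts divided by 3.65, since OsWRKY71 was added. Without the 6 libraries numbered 1 they numbered 5 for JA in oscoi1ab plants, 1 for JA in oscoi2 plants (OsWRKY76), 1 for oscoi2 against WT plants after JA and 0 for the responses of oscoi2 against oscoi1ab plants; fewer libraries are fitted there. With library size only, 1 was called for JA in oscoi2 plants. Over the omissions of 1 library, the number ranged from 1 to 2 for JA in oscoi2 plants, and from 0 to 2 for oscoi2 against WT plants after JA and for both interactions of oscoi2 plants. The replicate block changed no call of a member where equal numbers correlated. Elsewhere it added OsWRKY76 for JA in oscoi1ab plants (log2FC of -2.47, FDR 0.00353) and OsWRKY71 for the JA response of oscoi2 against WT plants (-1.60, FDR 0.00383).

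Values near 0 changed sign without a call. With library size only, which moved the median log2FC of all genes after JA by -0.15 in oscoi2, by -0.36 in oscoi1ab and by -0.35 in WT plants, OsWRKY70 gave -0.12 for JA in WT plants, OsWRKY45 0.13 for oscoi2 against WT plants after JA, and OsWRKY13 0.10 and 0.15 for the responses of oscoi2 against WT and oscoi1ab plants. OsWRKY45 gave 0.038 for oscoi2 against WT plants after JA without the libraries numbered 1. With the block, OsWRKY53 gave 0.0090 and OsWRKY28 0.024 for the response of oscoi1ab against WT plants. Over the omissions of 1 library, OsWRKY70 ranged from -0.30 to 0.63 and OsWRKY62 from -0.012 to 1.81 for JA in WT plants, OsWRKY62 from -0.78 to 0.060 for JA in oscoi1ab plants, and OsWRKY45 from -0.30 to 0.24 for oscoi2 against WT plants after JA. For the responses, OsWRKY13 ranged from -0.12 to 0.0090 between oscoi2 and oscoi1ab plants, OsWRKY53 from -0.17 to 0.11 and OsWRKY28 from -0.72 to 0.61 between oscoi1ab and WT plants. The cause of these changes was not tested. The other 35 log2FC values of members changed sign in 77 of 945 refits, none of them called.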
